A study of Homo sapiens with 8 samples.

Results

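The features described here are 266 entries of 68 to 79 nt on chromosomes other than 1, 6 and the mitochondrial genome, out of 2709 non-coding RNA features counted in each library. They were chosen by 3 properties of the count tables: an identifier made only of digits, the chromosome, and the length. The tables do not pair these numbers with names, so no amino acid or anticodon is given for any feature, and each is named by its GRCh37 position. Feature sequences were not analysed here. The length fits that of mature tRNAs, and the label "tRNA-length" means no more than that.

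The study sequenced small RNA of MEC-1, an established human B-cell line from chronic lymphocytic leukaemia, and of the exosomes it releases. Exosomes are small membrane vesicles shed into the medium. Libraries came from exosomes (n = 5) and from the cells themselves (n = 3), all of the same line and with no treatment named. Both groups came from bioreactor cultures in medium with 10% fetal calf serum. The serum had been depleted of its own vesicles, except in the upper medium compartment. All results therefore describe 1 cell line. For 3 exosome samples the matching cells were also taken, but which ones is not named. No label ties a library to a culture of its own, and the p-values below reflect the spread among these 8 libraries, which may be technical.

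A tRNA is a short RNA, transcribed by RNA polymerase III, that carries an amino acid to the ribosome. Its genes exist in many copies scattered over the genome, and copies of a gene often share the same mature sequence. tRNAs are also cut into fragments in cells and in body fluids, and such pieces are a well-known part of vesicle RNA. A count per feature does not say whether a read came from a whole tRNA, a fragment or a precursor.

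Total counts ran from 23353820 to 32436286 in exosome and from 25675636 to 57323598 in cell libraries. Between 168 and 204 of the 266 features had a read in any single library, and 38 had none in all 8. The 3 large rRNA features took 72.4% of exosome 5 and 37.7% to 49.3% of the other exosome libraries, against 24.6% to 30.7% in cells. Their part in the shares below was not tested beyond the setting that leaves them out. Of 5 miRNAs listed for the line, 4 were found, at unlike levels, and MIR155 was not. MIR21, abundant in leukaemic B cells, averaged 11170 ± 4401 CPM in exosomes (SD, n = 5) and 20180 ± 7015 CPM in cells (SD, n = 3). MIR181A1 averaged 358 ± 76.5 and 287 ± 144 CPM, and MIR181A2 385 ± 78.9 and 357 ± 129 CPM. MIR150 was low, at 24.9 ± 20.9 CPM in exosomes and 8.33 ± 8.43 CPM in cells. CPM here is a count divided by the library's total times its TMM factor (a scaling between libraries), expressed per 1e+06 reads. The factors were 1.21, 1.08, 1.41, 1.46 and 0.524 in exosomes 1 to 5. In cells 1 to 3 they were 1.42, 0.552 and 0.905.

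Copies with matching counts came first, since they bear on how many separate signals the 266 features hold. A pair of features counted as near-identical where their counts differed by at most 2% or 5 reads in each of the 8 libraries and both reached 100 reads in some library. Groups are chains of such pairs, so members of a group can lie slightly further apart. By that rule 16 of the 266 features fell into 6 groups, and 4 of those groups also held features on chromosome 1 or 6. The feature chr21:18827107-18827177 (number 23582) matched 4 features of chromosome 1, so its reads cannot be told apart from theirs. The 3 features around chr15:45490804-45490875 matched 3 features of chromosome 1. In the largest group, chr3:131950642-131950713 matched 6 features of chromosome 7. Another 3 matching features lay on chromosome 16, from chr16:70812114-70812184 to chr16:70823410-70823480. With each group counted once, 256 entries remained, which is not a count of separate signals. Only 128 of the 266 features reached 100 reads in some library, so the others could not be grouped, and 38 had no read. Features that matched in exosomes but not in cells also stayed separate.

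Reads on the 266 features made up 1.56% of exosome 1, 2.26% of exosome 2, 2.19% of exosome 3, 5.80% of exosome 4 and 0.609% of exosome 5. They made up 0.669% of cell 1, 0.328% of cell 2 and 0.371% of cell 3. Exosome 4 was the highest of all, and exosome 5 fell below cell 1, so the groups overlapped. The mean was 2.48% ± 1.97 (SD, n = 5) against 0.456% ± 0.186 (SD, n = 3), a difference that did not pass the exact permutation test (two-sided p = 0.0714, adjusted p = 0.107 over 6 share results). Such a share is relative to all other counted RNA: less of other RNA and more of these features cannot be told apart, nor can fewer source cells and less RNA per cell. With the 3 large rRNA features left out of the total, the groups did separate (4.56% against 0.634%, exact permutation p = 0.0357, adjusted p = 0.0536). Without exosome 4, the difference was 1.20 in place of 2.03 percentage points.

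**Figure D1:**
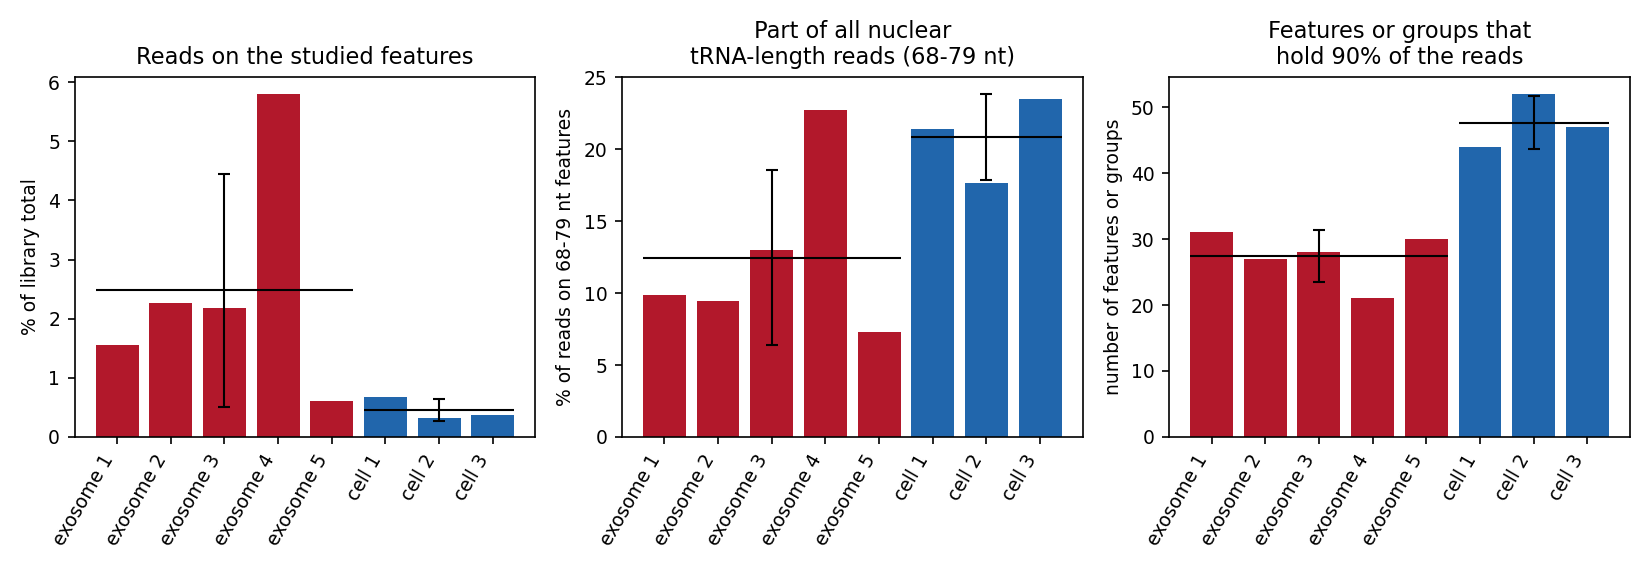
Bars show each library: left, reads on the 266 features as % of the library total; middle, their part of all reads on nuclear tRNA-length features of 68 to 79 nt, in %; right, how many features or near-identical groups hold 90% of their reads. Black lines are group means with SD (5 exosome libraries in red, 3 cell libraries in blue). Exosome 4 stands highest at 5.80%, and in the right panel no exosome bar (21 to 31) reaches the cell bars (44 to 52).

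Most reads lay in fewer features in each exosome library than in any cell library. Counting matching groups once, 90% of the reads lay in 31, 27, 28, 21 and 30 features in exosomes 1 to 5, and in 44, 52 and 47 features in cells 1 to 3. The groups did not overlap (27.4 ± 3.91 against 47.7 ± 4.04), which gives p = 0.0357 in the exact permutation test, the smallest that 56 splits allow, and an adjusted p of 0.107. The feature with the highest mean share, chr15:26327381-26327452, held 9.49% to 14.5% of these reads in exosomes and 4.10% to 6.99% in cells (exact permutation p = 0.0357, adjusted p = 0.107). Neither measure passed after adjustment.

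Compared with features of the same lengths on chromosomes 1 (128) and 6 (138), the 266 held a smaller average part of the joint reads in exosomes, without a difference that passed. Their part was 9.84%, 9.46%, 13.0%, 22.7% and 7.28% in exosomes 1 to 5, and 21.4%, 17.7% and 23.5% in cells 1 to 3. Only exosome 4 reached the cell range. The means of 12.5% ± 6.09 and 20.9% ± 2.97 gave p = 0.107 in the exact permutation test (adjusted p = 0.129). With matching groups counted once, the part was 42.0% ± 13.2 in exosomes and 50.1% ± 5.37 in cells (exact permutation p = 0.393, adjusted p = 0.393). Groups that span chromosomes were counted with the 266 there. That last difference of -8.12 percentage points was -13.6 without exosome 4 and -4.92 without exosome 5.

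Exosome and cell libraries were next compared feature by feature with edgeR's quasi-likelihood test over the whole table, with 0.05 as the limit of the adjusted p for a call. Of the 266 features, 159 had enough reads to be tested, and 58 were higher in exosomes, 31 were lower and 70 were not called. Over all 1178 tested features, 20.5% were called higher and 22.3% lower, and 42.8% were called in either direction. Among the 159, 36.5% were higher and 19.5% lower. The median log2 difference of the 159 was 0.87, against -0.09 over all tested features. Features of the same lengths on chromosomes 1 and 6 lay on either side of the 159. On chromosome 1, 52.9% of 68 tested were higher and 13.2% lower (median log2 2.175). On chromosome 6, 15.3% of 98 tested were higher and 23.5% lower (median log2 0.009). These differences between chromosomes were not tested. The groups did not overlap in 94 of the 159, with 65 higher and 29 lower, against 41.7% of all tested features (21.6% higher and 20.1% lower). Log2 differences of the called features ran from 1.32 to 4.47 upwards and from -1.38 to -5.12 downwards.

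Of the 58 higher features, 17 passed the filter on low counts only through exosome libraries, and 4 of the 31 lower features passed only through cell libraries. In all, 31 tested features passed through exosomes only and 7 through cells only, and these counts are partly set by the filter. The 107 untested features had at most 72 reads over all 8 libraries, with a median of 3. At the edges of the length rule, the 2 features of 68 nt had 0 and 3 reads in all, and the 3 features of 78 nt had none. No numbered feature on these chromosomes was shorter. The nearest longer ones, 22 features of 82 nt, reached 12952 reads, and 8 of 17 tested were called higher and 2 lower.

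**Figure D2:**
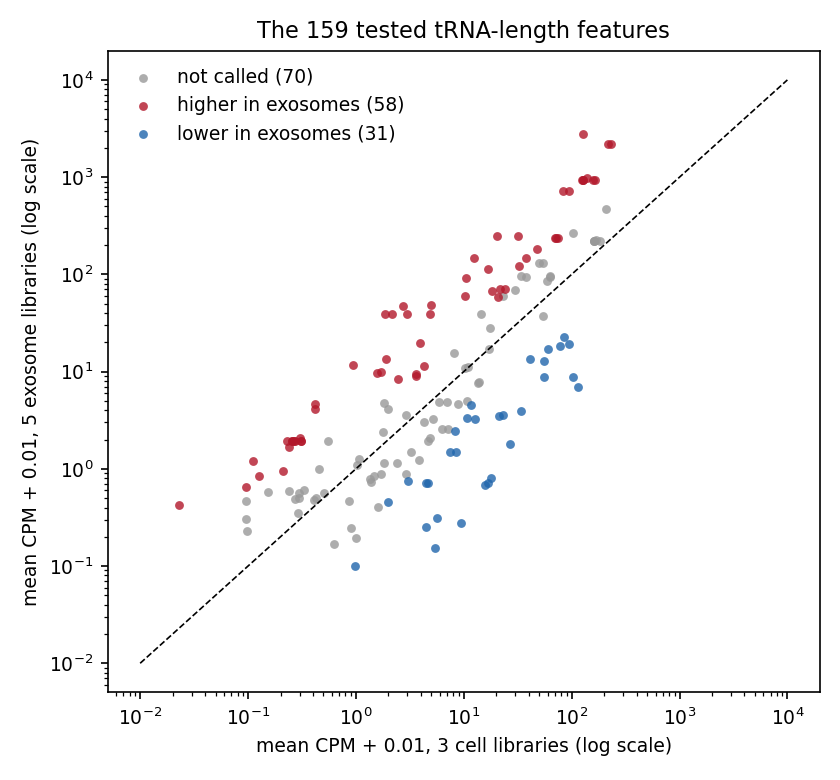
Each point is 1 of the 159 tested features, with its mean CPM in 3 cell libraries on the x axis and in 5 exosome libraries on the y axis, both on log scales with 0.01 added. Red points were called higher in exosomes (58), blue points lower (31) and grey points were not called (70); the dashed line marks equal levels, and the most abundant points lie above it.

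Among features abundant on the average of both groups the calls went in 1 direction, and among scarcer ones in both. CPM are not divided by length; the tested features are 71 to 75 nt long, and a level here is one of counted reads, not of molecules. Of the 24 features for which the average of both group means was at least 100 CPM, matching copies included, 17 were higher, none was lower and 7 were not called. Of 216 tested features of any kind at that level, 26.4% were higher and 39.4% lower. Features that reached 100 CPM in cells alone could be lower. chr14:21152175-21152246 averaged 114.5 CPM in cells and 6.93 CPM in exosomes (log2 -4.05). chr17:73030526-73030598 averaged 102.8 CPM in cells and 8.73 CPM in exosomes (log2 -3.56). Their averages over both groups put them in the class of 10 to 100 CPM. Several of the 24 matched another in all exosome libraries, as described below, so they are not 24 separate signals in exosomes. Among the higher ones, chr13:45492062-45492133 matched chr15:26327381-26327452, and chr14:58706613-58706685 matched chr15:79152904-79152976. Among those not called, chr2:157257659-157257729 matched the 3 matching features of chromosome 16. Between 10 and 100 CPM, 17 of 48 were higher and 13 lower, and under 10 CPM, 24 of 87 were higher and 18 lower. Those higher under 10 CPM include the 7 matching features led by chr3:131950642-131950713. Over all features, 16.2% were higher and 28.5% lower between 10 and 100 CPM, and 20.5% and 13.9% under 10 CPM. The difference between these level classes was not tested.

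**Figure D3:**
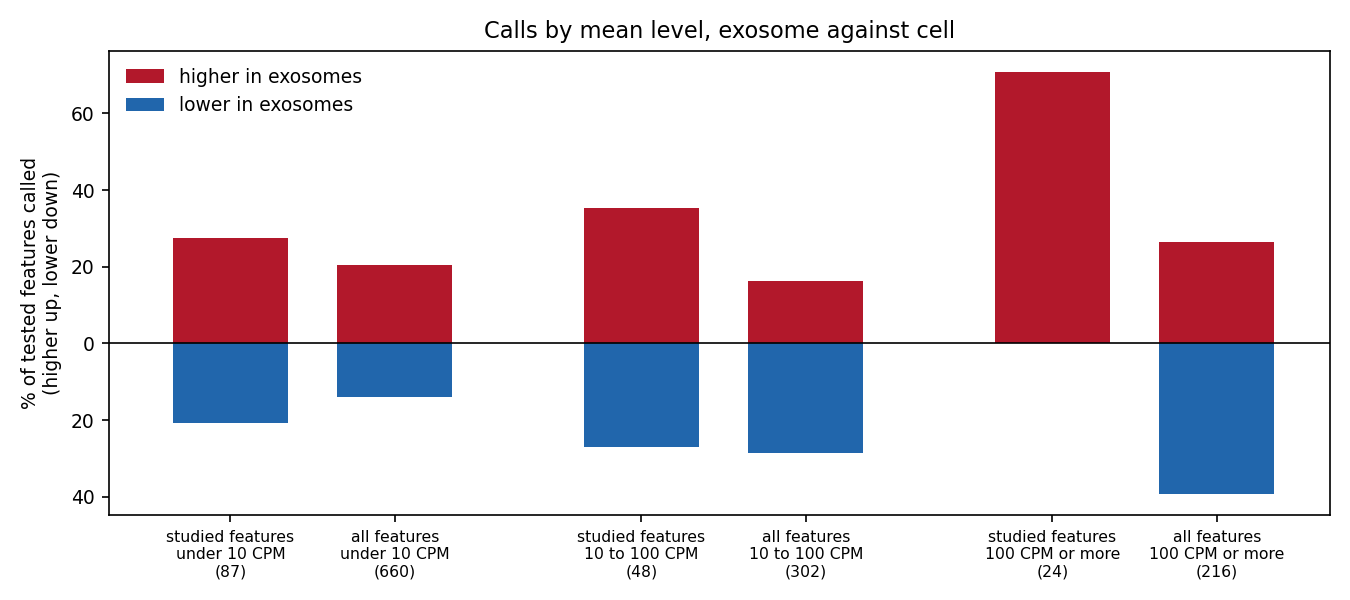
Bars give the % of tested features called higher (red, upwards) or lower (blue, downwards) in exosomes, for the 266 studied features and for all features. The 3 classes are of mean CPM, the average of both group means, and the number tested stands in brackets. At 100 CPM or more, 70.8% of the 24 studied features are higher and none lower, against 26.4% and 39.4% of all 216. Features whose exosome counts match each other are counted separately.

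The highest mean in exosomes was that of chr21:18827107-18827177, on the minus strand, which shares its counts with chromosome 1 as said above. That rank rests on exosome 4. It stood at 850, 1751, 1217, 9262 and 731 CPM in exosomes 1 to 5, and at 153, 99.3 and 128 CPM in cells 1 to 3. Every exosome library lay above every cell library, and exosome 4 lay far above the rest. The log2 difference was 4.45 (SE 0.94, edgeR adjusted p = 0.00151), a 21.8-fold rise, and 3.50 without exosome 4.

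A pair of features, chr13:45492062-45492133 and chr15:26327381-26327452, both 72 nt on the minus strand, stood above the chromosome 21 feature in each of the 4 other exosome libraries. Without exosome 4 their means were 1439 ± 315 and 1437 ± 314 CPM, against 1137 ± 458 CPM for the chromosome 21 feature (SD, n = 4). The first stood at 1081, 1821, 1535, 5244 and 1319 CPM in exosomes 1 to 5 and at 299, 189 and 170 CPM in cells 1 to 3. Exosome 4 was again the highest library, and the groups did not overlap. The rise was 10.0-fold (log2 3.33, SE 0.69, edgeR adjusted p = 0.00133). The chromosome 15 partner rose 9.51-fold (log2 3.25, SE 0.68), with exosome counts within 0.284% of the first in each library.

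The feature chr9:14433938-14434009 stood at 597, 1063, 912, 1585 and 745 CPM in exosomes and at 89.1, 292 and 31.3 CPM in cells 1 to 3. Cell 2 held the most among cells, and all exosome libraries were above it. The rise was 7.14-fold (log2 2.83, SE 0.73, adjusted p = 0.00521), and the log2 value was 3.87 without cell 2. The chromosome 15 group at chr15:45490804-45490875 had nearly the same profile, with 941 ± 369 CPM in exosomes, 125 ± 122 CPM in cells and a log2 value of 2.91, or 3.89 without cell 2.

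The remaining abundant exosome features rose by similar amounts. chr13:41634874-41634945 averaged 722 ± 546 CPM against 94.8 ± 39.7 CPM (log2 2.93, adjusted p = 0.00281), with exosome 4 at 1697 CPM and the other exosome libraries at 450 to 536 CPM. chr14:58706613-58706685 averaged 939 ± 476 against 163 ± 68.6 CPM (log2 2.52, and 3.12 without cell 3). Its partner chr15:79152904-79152976 averaged 939 ± 476 against 156 ± 71.1 CPM (log2 2.59, and 3.19 without cell 3). All 8 most abundant exosome features were called higher, but they were picked by their exosome level, so that count is a description.

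Of the 8 most abundant features of cells, 4 were the chromosome 13, 14 and 15 features above, and the other 4 were not called. The feature chr5:180600650-180600722 stood at 466, 584, 416, 458 and 456 CPM in exosomes and at 260, 263 and 99.5 CPM in cells. Its groups did not overlap, yet its log2 value of 1.20 (SE 0.52) had an edgeR adjusted p of 0.0759. It was called in 8 of 20 alternative settings, among them DESeq2 and limma-voom (adjusted p 0.0192 to 0.137 over all 20).

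The matching trio at chr16:70812114-70812184 stood at 203, 326, 229, 238 and 114 CPM in exosomes and at 116, 140 and 224 CPM in cells, so its groups overlapped (log2 0.47, SE 0.51, adjusted p = 0.485; log2 1.15 without cell 3). chr17:8029064-8029134 (log2 0.42, and 1.06 without cell 3) and chr2:157257659-157257729 (log2 0.30) had like levels, from 114.7 to 327.8 CPM in exosomes. All are 71 nt long. The exosome counts of chr2:157257659-157257729 matched those of chr16:70812114-70812184 within 0.874% in every exosome library, while in cell 2 they differed by 23.6%. Of these named features, none was called in any alternative setting that tested it.

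Among called features with a mean of at least 100 exosome reads and groups that did not overlap, the largest rises beside that of the chromosome 21 feature were in features of low level in cells. chr17:37025545-37025616 (number 7872) stood at 25.1, 41.0, 42.3, 72.1 and 13.0 CPM in exosomes and at 1.92, 1.46 and 2.12 CPM in cells. Every exosome library lay above every cell library, and the rise was 21.0-fold (log2 4.39, SE 0.72, adjusted p = 0.00027). Close by, chr17:37023898-37023969 rose 17.9-fold (log2 4.16). Further along the chromosome, chr17:37309987-37310058 rose 13.1-fold (log2 3.71, edgeR adjusted p = 0.000729). In the order named, these chromosome 17 features had nearly the same exosome counts, with 818, 818 and 841 reads in exosome 1. Their cell 1 counts were 70, 95 and 137 reads, so their folds differed mainly through the cell libraries and are not separate rises in exosomes. In chr17:19764175-19764245, exosome 4 stood at 163 CPM and the other exosome libraries at 12.3 to 26.0 CPM, against 1.56 to 4.12 CPM in cells (log2 4.13, and 3.08 without exosome 4). In chr2:204229131-204229201, exosome 4 stood at 38.2 CPM and the others at 2.46 to 6.64 CPM, against 0.655 to 1.15 CPM in cells (log2 3.64, and 2.79 without exosome 4).

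The group of 7 matching features led by chr3:131950642-131950713 was scarce throughout. That feature had 65, 52, 74, 106 and 19 reads in exosomes 1 to 5 and 3, 11 and 15 reads in cells 1 to 3. The groups did not overlap on the CPM scale (1.91 ± 0.716 against 0.246 ± 0.147 CPM; log2 2.94, SE 0.79, edgeR adjusted p = 0.00689). All 7 features passed the filter on low counts only through exosome libraries, so their calls are partly set by that filter.

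Among called features with groups apart and at least 100 cell reads on average, the 6 largest falls were in features with few exosome reads. In all 6 the highest cell library was cell 2 in CPM, a scale that rests on the TMM factors. chr14:102783429-102783502 (number 7526, 74 nt) had 3, 7, 10, 7 and 0 reads in exosomes 1 to 5 and 111, 347 and 90 reads in cells 1 to 3. The 0 in exosome 5 allows up to 0.210 CPM (3 counts), by counting error alone. The log2 value was -5.12 (SE 0.83, adjusted p = 0.000265), and -4.05 without cell 2. chr14:21081560-21081631 (number 7538) had 14, 10, 13, 4 and 3 exosome reads and 60, 685 and 195 cell reads (log2 -5.11, SE 0.80, adjusted p = 0.000196). Its log2 value was -3.37 without cell 2 and -4.51 without exosome 4. Both chromosome 14 features passed the filter on low counts only through cell libraries, so their calls are partly set by that filter.

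A further 4 features fell with the same arrangement of libraries. chr11:75946557-75946628 had 8 to 45 reads in exosomes and 156, 1100 and 462 in cells (log2 -4.56, and -3.30 without cell 2). chr7:128423504-128423575 had 14 to 41 against 101, 1358 and 265 (log2 -4.48, and -2.40 without cell 2). In chr12:125411891-125411962 there were 0 to 19 against 49, 278 and 144 (log2 -4.10, and -3.03 without cell 2). In chr9:112960803-112960875, 2 to 19 exosome reads stood against 251, 253 and 80 cell reads (log2 -4.18, edgeR adjusted p = 0.000346). Leaving out any library kept its log2 value between -4.28 and -3.86. This chromosome 9 feature also passed the filter on low counts only through cell libraries. By library total without the TMM factors, its highest cell library would be cell 1. All 6 stayed called without each library in turn. chr14:21077495-21077566, named after its values were seen, had 5, 12, 12, 3 and 36 reads in exosomes and 50, 1238 and 248 in cells. In it, exosome 5 (2.52 CPM) lay above cell 1 (1.37 CPM), but below cell 1 by library total without the TMM factors. The log2 value of this feature was -4.66 (edgeR adjusted p = 0.00273), but without cell 2 it was -2.45 and was not called (adjusted p = 0.0692). Without exosome 5 it was -6.19.

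**Figure D4:**
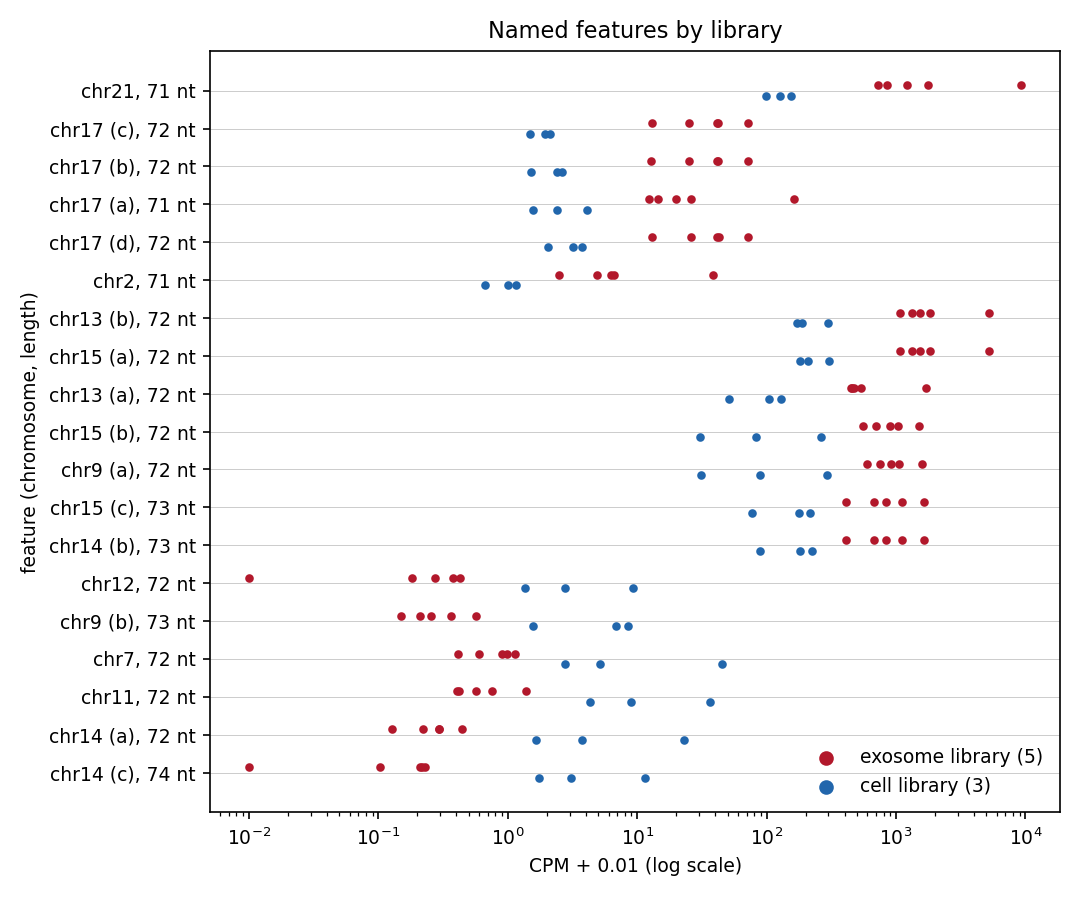
Each row is a named feature (chromosome and length; letters in genome order), the x axis is CPM + 0.01 on a log scale, and each dot is 1 library (5 exosome in red, 3 cell in blue). The groups are apart in every row; exosome 4 is the separate right-hand red dot of the chromosome 21 row, and cell 2 is the rightmost blue dot of the rows that fell.

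Many features that matched each other in exosomes did not match in cells. Among the 266 features, 54 pairs (39 features) had counts within 2% or 5 reads of each other in all 5 exosome libraries, with at least 100 reads in some exosome library. Of these pairs, 21 lie within the scarce group of chromosomes 3 and 7, whose 2 to 18 reads per cell library leave the 5-read tolerance little room to fail. The comparison was therefore made on the 96 features that reached 100 reads in some exosome and in some cell library.

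Among those 96 features, 26 pairs matched in all exosome libraries and 8 pairs in all cell libraries, and 6 pairs were in both sets. These 6 are 23.1% of the exosome pairs and 75.0% of the cell pairs. They belong to the chromosome 15 trio at chr15:45490804-45490875 and the chromosome 16 trio at chr16:70812114-70812184. The median difference of the 26 exosome pairs was 0.285%, 0.179%, 0.331%, 0.0961% and 0.225% of the larger count in exosomes 1 to 5, where the rule bounds it. It was 2.41%, 12.8% and 4.79% in cells 1 to 3. This pattern and its limits were chosen after the counts had been seen, and it was not tested.

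**Figure D5:**
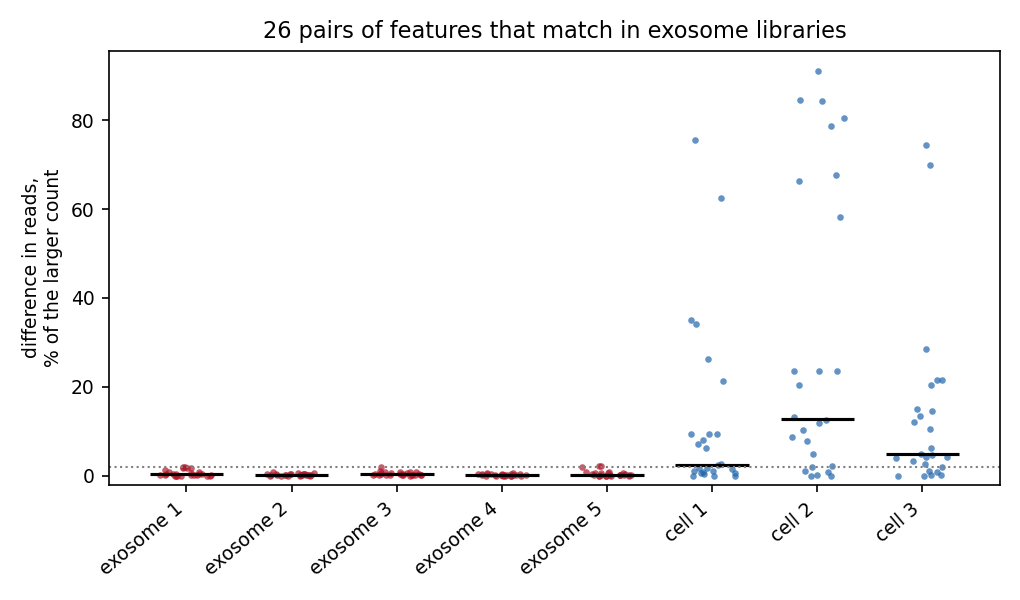
Each dot is 1 of 26 pairs of features chosen because their counts match in the 5 exosome libraries, with at least 100 reads in some library of each group; the y axis is the difference in reads as % of the larger count, by library, and black bars are medians. The dotted line marks 2%. Red dots (exosome) are low by the choice of pairs, while blue dots (cell) reach 75.6%, 91.1% and 74.4% in cells 1 to 3.

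Such pairs could receive different calls from nearly equal exosome counts. chr17:37309987-37310058 and chr17:37310744-37310815 had 841 and 841 reads in exosome 1, 1447 and 1443 in exosome 2, 1951 and 1960 in exosome 3, 2468 and 2466 in exosome 4, and 187 and 186 in exosome 5. In cells 1 to 3 the first had 137, 61 and 164 reads and the second 365, 683 and 547. The first was called higher (log2 3.71) and the second was not (log2 1.44, adjusted p = 0.0748). In 3 of the 26 pairs, 1 feature was called higher and the other was not called. In one of them, chr5:180633868-180633939 and chr12:125406301-125406372, the adjusted p values were 0.0418 and 0.0569, on either side of the limit.

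Unequal cell counts also occurred between features that both fell. In the chromosome 17 cluster of 3 features from 73030001 to 73031280, chosen here after its values were seen, all 3 were called lower. chr17:73030001-73030073 and chr17:73030526-73030598 differed by at most 7 reads in any exosome library, with 304 and 299 reads in exosome 1. In cell 2 they had 2092 and 6223 reads, while in cell 1 they had 2721 and 2765. Their log2 values were -2.66 and -3.56.

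Beside the 20.5% higher and 22.3% lower over all features, calls were counted by length and position. By length, 32 of the 72 tested features of 72 nt were higher and 15 lower, and 21 of the 61 of 73 nt were higher and 14 lower. Matching copies count separately there. The higher ones of 72 nt include the 7 matching features led by chr3:131950642-131950713 and the 3 around chr15:45490804-45490875. Of the 13 tested features of 71 nt, 5 were higher and none lower. None of the 12 tested features of 74 nt was higher and 2 were lower. In 10 clusters, 3 or more features lay with starts within 5000 bases of the next. Of 42 tested features in these clusters, 9 were higher (21.4%) and 12 lower (28.6%), shares near those over all features, and 4 clusters held calls in both directions. The chromosome 16 cluster from 3220961 to 3246225 had 12 features, of which 11 were tested, 1 was higher and 2 were lower. Of the 74 tested features without a neighbour in that reach, 30 were higher (40.5%) and 13 lower (17.6%). These differences between lengths and between clustered and lone features were not tested. On chromosome 17, 3 features overlapped counted blocks of LINC00324, a long non-coding RNA gene; the counting rule for overlaps is not given in the sources used here.

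By chromosome, the summed share of the library total separated the groups for 7 of 20 chromosomes, with 6 higher and 1, chromosome 10, lower in exosomes. Chromosome 15 held 0.751% ± 0.572 in exosomes and 0.0763% ± 0.032 in cells, a ratio of means of 9.83. Chromosome 10 had 0.00326% ± 0.00162 in exosomes and 0.00734% ± 0.000913 in cells. Each of the 7 had an exact permutation p of 0.0357, and the lowest adjusted p over 20 chromosomes was 0.102, so none passed.

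Other RNAs give the frame for these values. Of 22 mitochondrial tRNAs, which serve the ribosomes of that organelle, 4 were higher (18.2%) and none lower (median log2 0.92). Over all tested features, 20.5% were higher and 22.3% lower, so the share called higher was near that of all features. MT-TE, the tRNA for glutamate, averaged 10180 ± 10030 against 1893 ± 792 CPM (log2 2.43, SE 0.76, adjusted p = 0.0167). RPPH1 and RMRP, the RNAs of the enzymes RNase P and RNase MRP, were looked for by symbol and not found among the counted features. The 4 Y RNAs, also made by RNA polymerase III, were all higher, with log2 values from 2.12 to 4.71.

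RNA from other sources was followed with markers. Of 12 miRNAs of other tissues found in the table, 5 were higher in exosomes and none lower, against 20.5% and 22.3% of all tested features. Their sum was 109 to 277 CPM in exosomes and 58.5 to 88.1 CPM in cells. No marker was at 0 in all cell libraries, and MIR122 of liver was at 55.3 ± 37.5 against 1.25 ± 0.79 CPM. The 3 nuclear RNAs RN7SK, SNORD101 and SNORD48 were all lower, with a sum of 493 to 850 CPM in exosomes and 47360 to 72110 CPM in cells. None of the 4 miRNAs of the B-cell line was called by edgeR. The part of serum or cell debris RNA in the results was not tested.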

How the data were processed

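The authors deposited 1 table of raw read counts per library, with the columns of featureCounts, per the file headers. Tools listed without their roles are cutadapt 1.1, STAR, featureCounts and DESeq2 1.8.2, with the build GRCh37, per the submitters' processing notes. Per the labels' protocols, 30 ng of RNA under 200 nt entered an adapter-ligation kit with 15 PCR cycles, and vesicles were spun at 100000 g with a 20% iodixanol cushion. The handling of reads with several mapping places and of strand is not given in the sources used here. Reads carry no molecular identifiers, so limits from a count of 0 (3 counts) cover counting error only. Base modifications of tRNAs can stop reverse transcription, so counts need not follow molar levels.

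The whole table was fitted with edgeR 4.0.16 (R 4.3.3; TMM, default low-count filter with a minimum of 10, robust quasi-likelihood fit, Benjamini-Hochberg adjustment). An SE is the log2 value divided by the root of F. DESeq2 1.42.0, limma-voom 3.58.1, other scalings and filters, counting matching features once and leaving out libraries were alternatives. Shares were compared by exact permutation over 56 splits. The fits were tested on simulated data. There edgeR recovered 2 of 49 changes of 2-fold, 20 of 46 of 4-fold and 33 of 38 of 8-fold, and called 4 of 955 unchanged features. A feature that was not called may therefore still differ by such smaller folds.

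Named features are the 8 most abundant per group, the 6 largest called changes each way (groups apart, higher group averaging 100 counts or more), matching groups of 3 or more, and the 4 most abundant not called. Members, lists and rules were chosen with earlier results of these data known.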

Additional observations from a re-analysis of the deposited data

Results flagged for a closer look

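In 6 of the 31 values checked for a library far from the rest of the exosome group, exosome 4 stood apart on the high side. By chance alone about 1 in 20 such checks is flagged, and the features are not independent of each other. The values of exosome 4 were 9262 CPM for chr21:18827107-18827177, 5244 CPM for chr13:45492062-45492133, 5236 CPM for chr15:26327381-26327452, 1697 CPM for chr13:41634874-41634945, 163.4 CPM for chr17:19764175-19764245 and 38.19 CPM for chr2:204229131-204229201. The gap to the next library was 0.822 to 0.931 of the group's range in these 6. All 6 stayed called higher without exosome 4.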

How the results depend on the processing

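The count of features called higher lay between 50 and 71 over the alternatives other than leaving out a single library, and the count called lower between 20 and 31; leaving out 1 library gave 42 to 67 higher and 21 to 33 lower. With the replicate block on libraries 1 to 3, 51 were higher and 20 lower, against 56 and 25 for the same libraries unblocked. Deviations of libraries with equal numbers correlated at 0.107, -0.0896 and 0.185, and those with unequal numbers at -0.204 to 0.0773. With so few libraries this cannot decide whether equal numbers pair the samples. No label names the pairs, so the numbers were not taken as pairing them. The median log2 value of the tested features was 1.63 with at least 50 counts in 3 libraries (124 features tested), and 0.66 to 1.15 when single libraries were left out. Total count scaling moved the median of all features from -0.09 to 0.19 and upper-quartile scaling to 0.25; the median of the studied features stayed above it by 0.90 and 0.93 (0.96 with TMM). DESeq2 gave no adjusted p for 3 features. Of 25 named features, 24 kept their side of the threshold in every alternative in which they were tested, the exception being chr5:180600650-180600722, and none changed direction. Alternatives chosen after seeing the data dropped exosome 5 and cell 2 together (62 higher, 23 lower) or counted features alike in exosomes once (50 higher, 22 lower of 133). No share result changed direction or passed after adjustment. The low-count filter lay at 0.335 CPM, and features under it were not compared at this depth.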
